A study of Arabidopsis thaliana with 23 samples.

Results

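The auxin receptors and auxin response factors known as miRNA targets, 9 genes in all, were followed in seedlings of Arabidopsis thaliana. They are the response factors ARF6 (AT1G30330) and ARF8 (AT5G37020), targets of miR167, the response factors ARF10 (AT2G28350), ARF16 (AT4G30080) and ARF17 (AT1G77850), targets of miR160, and the receptors TIR1 (AT3G62980), AFB1 (AT4G03190), AFB2 (AT3G26810) and AFB3 (AT1G12820), targets of miR393. They were chosen by gene identifier, with earlier results of these data known. All 9 were present among the 27655 genes of the mRNA table. All 9 passed the filter on low values, a mean of at least 1 TPM (a length-normalised share of all transcripts) over all libraries, which left 16564 genes.

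The study compared sos2-2 with the wild type, each with and without salt, by mRNA and small RNA sequencing of whole seedlings. The sos2-2 line carries a mutation in SOS2, a protein kinase of the salt overly sensitive pathway of sodium export, and the design text names gl1 where the labels of the other line say WT. Seeds of both lines spent 2 days in the cold and then 10 days at 22 °C under constant light on MS medium, a mineral nutrient medium, with 3% sucrose. The groups were sos2-2 in NaCl, WT in NaCl, sos2-2 on MS and WT on MS, and the NaCl groups were kept in liquid MS with 100 mM NaCl for 12 hours. No label tells whether the MS groups went into liquid medium too, and if they did not, NaCl and the transfer cannot be told apart. There were 2 mRNA libraries of sos2-2 on MS and 3 libraries of every other group in both assays. Nothing in the labels makes the replicates separate cultures, and p-values therefore cover only the spread among libraries, which may be technical. In whole seedlings, fewer cells of a type and less RNA per cell cannot be told apart either.

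Auxin acts by bringing an F-box receptor of the TIR1 and AFB family together with an Aux/IAA repressor, which is then marked for destruction. Loss of the repressor frees the auxin response factors, DNA-binding proteins that switch auxin genes on or, for some members, off. Plant miRNAs pair almost fully with their targets and mostly cut them, so miR393 limits the receptors, while miR160 and miR167 limit particular response factors. In Arabidopsis, miR160 is known for its roles in root cap, leaf and embryo development, miR167 for flower and root development, and miR393 for tuning auxin sensitivity to stress and nitrate.

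The miRNAs that face these targets are printed first, because the sites of the 9 genes are read against them. Sequences are those of the TAIR10.1 RefSeq genome, written 5′ to 3′ with the seed, bases 2 to 8, in capitals.

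miR160a-5p: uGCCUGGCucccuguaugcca

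miR167a-5p: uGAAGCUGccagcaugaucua

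miR167c-5p: uAAGCUGCcagcaugaucuug

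miR167d: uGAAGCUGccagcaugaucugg

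miR393a-5p: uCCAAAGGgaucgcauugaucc

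The sequence of miR160a-5p is shared by miR160b and miR160c-5p, that of miR167a-5p by miR167b and that of miR393a-5p by miR393b-5p. Reads of such identical molecules cannot be assigned to 1 precursor. The seed of miR167d is that of miR167a-5p, but the 3′ end of its sequence differs and is longer, whereas miR167c-5p starts 1 base further along and has another seed.

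The sites of the 9 genes lay in coding sequence and are shown with the bases that form a Watson-Crick pair with the miRNA in capitals. Each was the best-paired site of its gene, scored with 1 for a mismatch and 0.5 for a G:U pair, both doubled at miRNA positions 2 to 13.

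ARF17, for miR160: UGGCAUgCAGGGAGCCAGGCA

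ARF10, for miR160: aGGaAUACAGGGAGCCAGGCA

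ARF16, for miR160: gGGuuUACAGGGAGCCAGGCA

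ARF8, for miR167: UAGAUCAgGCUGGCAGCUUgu

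ARF6, for miR167: gAGAUCAgGCUGGCAGCUUgu

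AFB2 and AFB3, for miR393: GaAaCAAUGCGAUCCCUUUGGA

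TIR1, for miR393: GagaCAAUGCGAUCCCUUUGGA

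AFB1, for miR393: GagaCcAUGCGAUCCCUUUGGA

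Substitutions against a perfect complement are counted from the 5′ end of the miRNA, with the base of the complement first. The ARF17 site, at chr1:29274189-29274209 on the plus strand, differed by A15G alone, a G:U pair, and had the lowest score of the 9 genes (0.5). ARF10 (chr2:12115741-12115761, plus strand) had C18A and U21A, with a score of 2. ARF16 (chr4:14704141-14704161, minus strand) had A17U, C18U and U21G, with a score of 2.5. All 3 miR160 sites were thus complete across the seed.

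The miR167 sites, scored against miR167a-5p, were the least complete. Pairing with miR167c-5p and miR167d was not scored. ARF8 (chr5:14633841-14633861, plus strand) had A1U, C2G and U14G and a score of 4, and ARF6 (chr1:10686478-10686498, minus strand) had the same 3 and U21G, with a score of 5. In both genes the C2G change lies in the seed of miR167a-5p.

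The receptor sites were complete over the first 16 bases of miR393. AFB2 (chr3:9870237-9870258, plus strand) and AFB3 (chr1:4369085-4369106, minus strand) had U19A and G21A and a score of 2. TIR1 (chr3:23273727-23273748, minus strand) also had A20G and scored 2.5, and AFB1 (chr4:1405341-1405362, minus strand) had A17C on top of these and scored 3.5. All 15 annotated transcripts of the 9 genes held their site, so no annotated isoform lacks the site shown for its gene.

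Across the annotated transcripts, 3 of 31460 genes scored 4 or less for miR160a-5p (0.00954%), and all 3 were ARF10, ARF16 and ARF17. For miR167a-5p it was 1 gene of 31460, ARF8 (0.00318%). For miR393a-5p there were 5 of 31458 genes (0.0159%), which were the 4 receptors and AT3G23690. A match of letters is a description and shows no cleavage.

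Libraries differed in makeup before any of the 9 genes is considered. Plastid-encoded transcripts took 65.9 to 69.8% of all TPM for sos2-2 in NaCl, 71.5 to 79.3% for WT in NaCl, 68.6 to 72.9% for sos2-2 on MS and 65.4 to 71.5% for WT on MS. TPM is a share, so a gene's TPM is lower where plastid transcripts take more. Over all genes tested, the log2 change had a median of 0.32 for sos2-2 against WT in NaCl, 0.16 for salt in sos2-2, −0.21 for salt in WT, −0.05 for sos2-2 against WT on MS and 0.39 for the interaction. Changes are therefore given relative to the median gene, while limma's adjusted p-values refer to the values as deposited. Libraries also followed the purine share of transcripts to different degrees. Across 16369 nuclear genes, which are not independent, Spearman's rho with the deviation from the gene's mean was −0.18 to 0.253 in sos2-2 in NaCl, −0.315 to 0.326 in WT in NaCl, 0.197 to 0.239 in sos2-2 on MS and −0.391 to −0.0874 in WT on MS. WT in NaCl replicate 1 stood at −0.315, against 0.192 and 0.326 for replicates 2 and 3. All 9 genes had a purine share below the median of the genes tested and 8 of 9 were below percentile 25. The part of this in the results below was not tested. Shoot markers summed to 5594 to 9234 TPM in sos2-2 in NaCl, 3764 to 7168 TPM in WT in NaCl, 6019 to 6531 TPM for sos2-2 on MS and 10406 to 12562 TPM in WT on MS, and 9 root markers to 27.2 to 31.4, 20.3 to 34.2, 21.6 to 27.5 and 36.3 to 37.3 TPM in the same groups. No marker was at 0 in all libraries, and their part in the results was not tested. SOS2 itself stood at 0.818 to 1.36 TPM over the 11 libraries without a call by limma; the nature of the allele is not stated, so this level checks no label.

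All 9 genes were expressed at modest levels. Together they summed to 38.6 to 42.4 TPM in sos2-2 in NaCl, 22.3 to 35.8 TPM in WT in NaCl, 31.1 to 37.3 TPM in sos2-2 on MS and 32.5 to 40.6 TPM in WT on MS. The sums of sos2-2 in NaCl lay above those of WT in NaCl without overlap. In this comparison the median gene was higher by 0.32 on the log2 scale, and 36.0% of all genes tested were higher without overlap. TPM is per length, so genes can be set beside each other: AFB3 and TIR1 were the highest of the 9, with 3.98 to 8.68 and 3.86 to 8.35 TPM over the 11 libraries, and ARF10, ARF17 and AFB1 the lowest, with highest values of 2.78, 2.62 and 1.95 TPM.

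**Figure D1:**
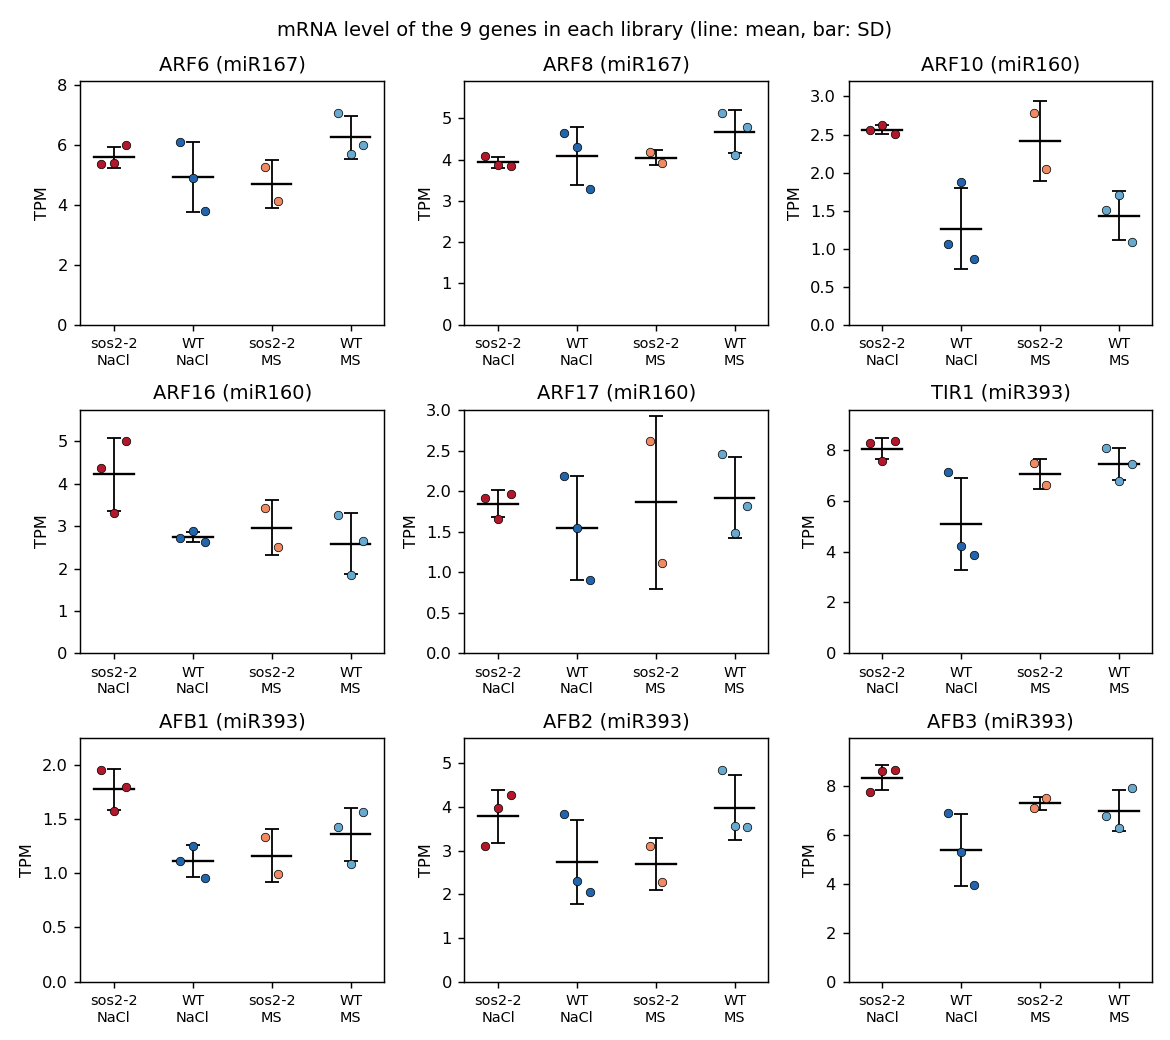
TPM (vertical axis, from 0) of the 9 genes in each mRNA library, one panel per gene with its miRNA in brackets; points are libraries, lines group means and bars the SD (n = 3, 3, 2 and 3 from left to right). ARF10, TIR1 and AFB3 are higher in all 3 sos2-2 NaCl libraries than in all 3 WT NaCl libraries.

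The comparison of sos2-2 with WT in NaCl asked what the mutation changes once salt is present, and it is the only one of the 5 in which any of the 9 genes was called. ARF10, TIR1 and AFB3 rose, and none fell. That is 3 of 9 genes by limma, where 19.3% of all genes tested were called in either direction and 18.9% rose. The median of the 9 genes was 0.08 on the log2 scale relative to the median gene, and 6 of 9 lay above it. Without overlap of the groups, 5 of the 9 genes were higher in sos2-2, as were 36.0% of all genes tested. Both counts rest on 9 genes and lie near or somewhat above the share of genes in general, and no test sets them apart from it.

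ARF10, a repressing response factor known for root cap formation and seed germination, had 2.56, 2.62 and 2.51 TPM in sos2-2 in NaCl, against 1.06, 1.87 and 0.858 TPM in WT in NaCl. The 3 mutant libraries lay close together and above every WT library. The log2 change was 0.68 as deposited and 0.36 relative to the median gene (SE 0.18), with a limma adjusted p of 0.0181. Without salt, ARF10 had 2.78 and 2.05 TPM in sos2-2 on MS, against 1.51, 1.71 and 1.09 TPM in WT on MS, again without overlap. That difference, 0.54 relative to the median gene (SE 0.21), did not pass (limma adjusted p = 0.194). ARF10 was thus highest in the mutant groups, whose libraries overlapped, and lowest in the WT groups, which overlapped as well. The salt changes were −0.09 in sos2-2 (95% interval −0.50 to 0.31) and 0.08 in WT (−0.28 to 0.45).

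TIR1, the founding auxin receptor, had 8.27, 7.57 and 8.35 TPM in sos2-2 in NaCl, against 7.16, 4.24 and 3.86 TPM in WT in NaCl. The groups did not overlap, but WT replicate 1 lay near the mutant values. The log2 change was 0.61 as deposited and 0.30 relative to the median gene (SE 0.20, limma adjusted p = 0.0389). On MS the receptor stood at 7.48 and 6.63 TPM in sos2-2, against 8.07, 6.80 and 7.45 TPM in WT, with overlapping groups. WT in NaCl was the lowest of the 4 groups, though its highest library reached into both MS groups.

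AFB3, a receptor known for the nitrate response of roots, had 7.77, 8.61 and 8.68 TPM in sos2-2 in NaCl, against 6.91, 5.31 and 3.98 TPM in WT in NaCl. No WT library reached the lowest mutant one. The log2 change was 0.57 as deposited and 0.25 relative to the median gene (SE 0.19, limma adjusted p = 0.0431). On MS it had 7.13 and 7.51 TPM in sos2-2, against 6.80, 6.29 and 7.93 TPM in WT, which overlapped. The order of the group means was sos2-2 in NaCl, sos2-2 on MS, WT on MS and WT in NaCl, and the neighbours from sos2-2 on MS downwards overlapped.

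The 3 calls were lost under several alternatives, while the 3 differences stayed above 0 in all 19. The lowest values were 0.23 for ARF10, 0.18 for TIR1 and 0.19 for AFB3. Relative to the median gene, the 95% intervals were 0.00 to 0.72 for ARF10, −0.09 to 0.68 for TIR1 and −0.12 to 0.63 for AFB3. After median centring none of the 3 was called (limma adjusted p = 0.26, 0.25 and 0.327), and ARF8 fell instead (−0.35, limma adjusted p = 0.0269), where 10.6% of all genes were called and 5.65% fell. None of the 3 was called when nuclear genes were rescaled to a common total (10% of all genes called), without WT in NaCl replicate 3 (6.77%) or without sos2-2 in NaCl replicate 3 (8.98%). Over 19 alternatives, ARF10 was called in 15, TIR1 in 8 and AFB3 in 5.

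The other 6 genes were not called in this comparison. AFB1, a receptor of rapid auxin responses in roots, averaged 1.77 ± 0.189 TPM in sos2-2 in NaCl and 1.11 ± 0.147 TPM in WT in NaCl (SD, n = 3 each), without overlap (0.08 relative to the median gene, limma adjusted p = 0.0821). ARF16, the close partner of ARF10 in the root cap, averaged 4.22 ± 0.86 TPM in sos2-2 in NaCl and 2.75 ± 0.122 TPM in WT in NaCl (SD, n = 3 each), also without overlap (0.15, limma adjusted p = 0.0873). AFB2, a receptor close to AFB3, averaged 3.79 ± 0.6 and 2.74 ± 0.966 TPM in sos2-2 and WT in NaCl, with overlap (0.06, limma adjusted p = 0.175). ARF6 and ARF8, activators known together for flower maturation, lay below the median gene at −0.15 and −0.35, and ARF17, a repressor known for pollen wall formation, at −0.13. ARF8 had 4.08, 3.87 and 3.84 TPM in sos2-2 in NaCl, against 4.64, 4.32 and 3.29 TPM in WT in NaCl, so the mutant values lay inside the WT range while the median gene was higher in the mutant.

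**Figure D2:**
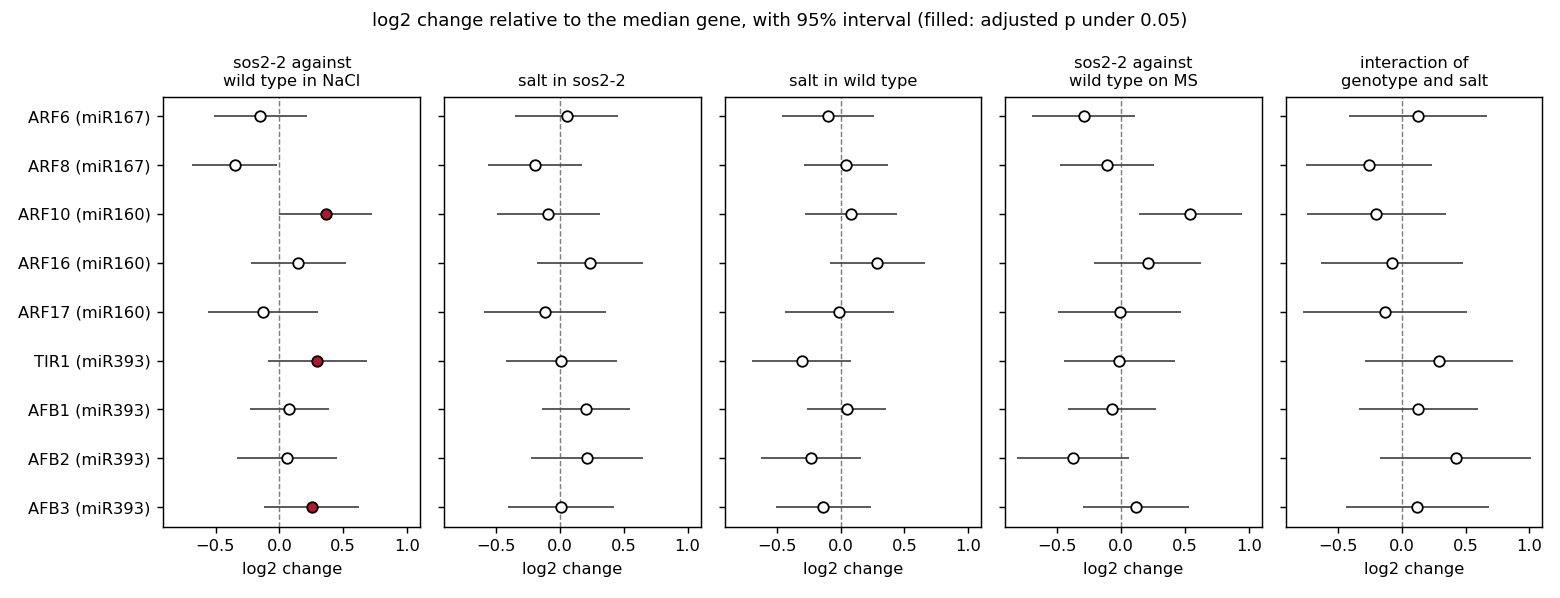
log2 change relative to the median gene (horizontal axis) of the 9 genes in the 5 comparisons, with approximate 95% intervals. The intervals take a normal multiple of limma's SE. Filled points had an adjusted p under 0.05 for the change as deposited, and the dashed line is the median gene. Only ARF10, TIR1 and AFB3 are filled, all for sos2-2 against WT in NaCl, and most intervals include 0.

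Salt alone gave no call in either line. In sos2-2, 0 of 9 genes were called by limma, where 6.59% of all genes tested were, and 0 had an unadjusted p under 0.05. The changes ran from −0.19 for ARF8 to 0.23 for ARF16 relative to the median gene, with a median of 0.01. AFB1 was at 1.58 to 1.95 TPM in sos2-2 in NaCl, against 0.989 to 1.33 TPM in sos2-2 on MS (0.20, limma adjusted p = 0.281). In 5 genes (ARF6, TIR1, AFB1, AFB2 and AFB3) NaCl was higher without overlap, as 28.9% of all genes tested were. For AFB2 the gap was tiny, between 3.115 TPM for the lowest library in NaCl and 3.114 TPM for the highest on MS.

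In WT, 0 of 9 genes were called after salt by limma, where 9.41% of all genes tested were. No member was free of overlap in either direction, where 4.09% of all genes were higher and 22.7% lower without overlap. TIR1 and AFB2 had an unadjusted p under 0.05. TIR1 averaged 5.08 ± 1.81 TPM in WT in NaCl and 7.44 ± 0.635 TPM in WT on MS (SD, n = 3 each), a change of −0.30 relative to the median gene (95% interval −0.69 to 0.09, limma adjusted p = 0.106). AFB2 had 3.84, 2.31 and 2.06 TPM in WT in NaCl, against 4.85, 3.56 and 3.55 TPM in WT on MS (−0.23, 95% interval −0.62 to 0.16, limma adjusted p = 0.166). In both genes WT in NaCl replicate 1 was the library that overlapped the MS group. Without it, both were called lower (limma adjusted p = 0.00662 for TIR1 and 0.0217 for AFB2), while the other 7 genes were not called, and 21.9% of all genes fell. ARF16 had the highest value of the 9 genes in this comparison, 0.29 (95% interval −0.08 to 0.66), with 2.64 to 2.88 TPM in NaCl and 1.84 to 3.27 TPM on MS.

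Without salt, 0 of 9 genes were called by limma between sos2-2 and WT, where 2.79% of all genes tested were, and ARF10 alone had an unadjusted p under 0.05. ARF6 stood at 4.14 to 5.26 TPM in sos2-2 on MS, against 5.68 to 7.06 TPM in WT on MS (−0.29, limma adjusted p = 0.362). AFB2 stood at 2.28 to 3.11 TPM in sos2-2 on MS, against 3.55 to 4.85 TPM in WT on MS (−0.38, limma adjusted p = 0.293). Both were lower in the mutant without overlap, as were 22.7% of all genes tested, and ARF10 was higher without overlap, as were 16.8%.

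The interaction, which subtracts the salt change of WT from the mutant's, was not called for any of the 9 genes by limma, where 2.04% of all genes tested were. The 4 receptors all lay above the median gene (0.12 to 0.42) and the 3 miR160 targets all below it (−0.20 to −0.08), a contrast that was not tested. Over 18 alternatives the signs of ARF10 (−0.34 to 0.48), ARF16 (−0.17 to 0.04), ARF17 (−0.40 to 0.14) and AFB3 (−0.02 to 0.28) changed, whereas TIR1, AFB1 and AFB2 stayed above 0. AFB2 had the highest value, 0.42 (95% interval −0.17 to 1.01, limma adjusted p = 0.139). TIR1, AFB1 and AFB2 had an unadjusted p under 0.05. TIR1 and AFB2 were called without WT in NaCl replicate 1 (limma adjusted p = 0.0212 and 0.017), as were 21.4% of all genes.

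Annotated transcripts were examined next for the 4 genes with more than 1. ARF8.1 held most ARF8 signal, with 76.9 ± 11.3% of the gene's TPM in sos2-2 in NaCl, 56.0 ± 10.2% in WT in NaCl, 90.7 ± 6.94% for sos2-2 on MS and 57.2 ± 12.2% in WT on MS (SD, n = 3, 3, 2 and 3). ARF8.2, whose exon with the miR167 site is longer than that of ARF8.1, had 0.485 TPM in sos2-2 in NaCl replicate 1 and was under 0.001 TPM in the 4 other sos2-2 libraries. In WT it had 0.783, 1.9 and 0.925 TPM in NaCl and 1.42, 0.716 and 2.2 TPM on MS. No sos2-2 library reached the lowest of the 6 WT libraries. This view pools MS and NaCl libraries, and the share of all transcripts that separate the genotypes in this way was not counted.

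The share of ARF8.1 was higher in sos2-2 by 21.0 percentage points in NaCl (exact two-sided permutation p = 0.1, the smallest possible) and by 33.5 points on MS (exact p = 0.2, the smallest possible), and with 16 shares tested no adjusted p was below 0.914. In a limma fit of 42624 transcripts, chosen after the values were seen, ARF8.2 differed by −1.04 in NaCl (adjusted p = 0.114) and by −1.24 on MS (adjusted p = 0.192) relative to the median transcript and was not called, where 3.07% of transcripts were called in NaCl and 0.103% on MS. The deposited values are estimates that divide reads between overlapping transcripts, so a value near 0 can be a failed estimate.

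ARF10 moved between its transcripts from library to library. ARF10.1, the spliced form, had 2.19, 2.19 and 2.24 TPM in sos2-2 in NaCl, against 1.06, 0 and 0.631 TPM in WT in NaCl. In WT in NaCl replicate 2 all signal was given to ARF10.2, which keeps the last intron (1.87 TPM). On MS, ARF10.1 had 2.78 and 0.658 TPM in sos2-2, against 0.754, 1.71 and 1.09 TPM in WT. ARF10.1 alone differed between sos2-2 and WT in NaCl by 0.98 relative to the median transcript (limma adjusted p = 0.131). ARF6.2 held 38.0 to 76.9% of the ARF6 signal in WT in NaCl and ARF17.1 held 77.3% or more of the ARF17 signal in every library. The other 5 genes had a single annotated transcript.

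**Figure D3:**
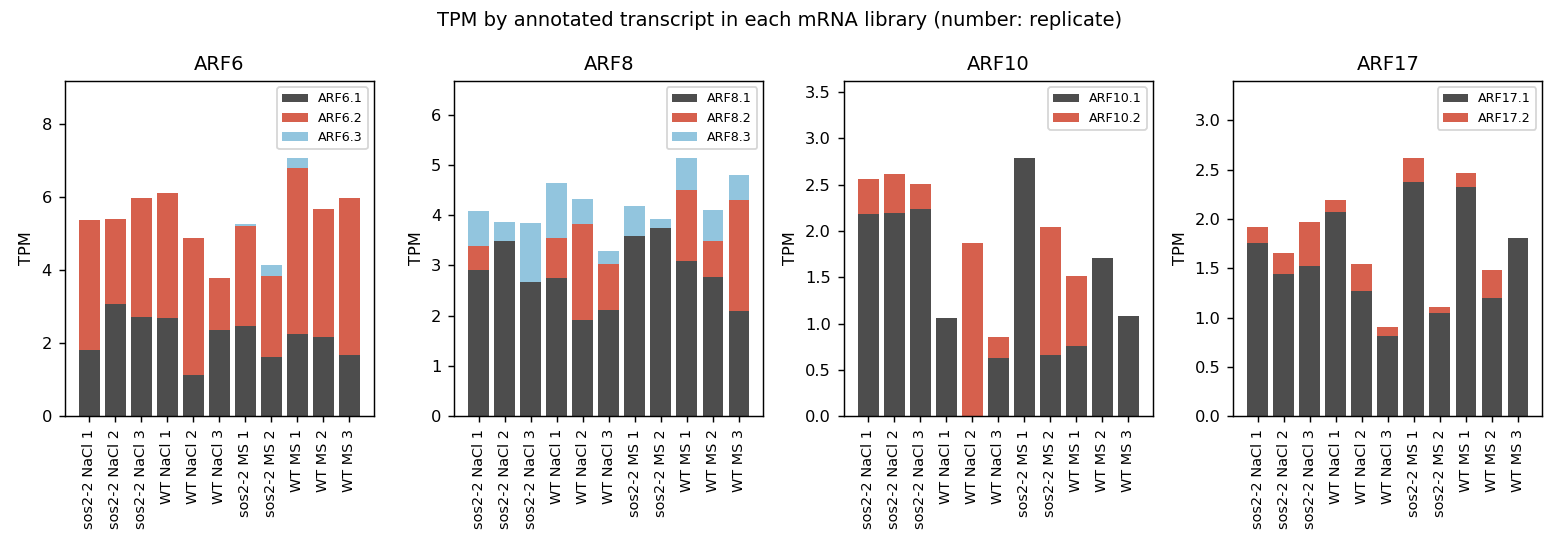
TPM (vertical axis, from 0) of each annotated transcript, stacked, in every mRNA library of ARF6, ARF8, ARF10 and ARF17; the number after the group is the replicate. ARF8.2 is visible in all 6 WT libraries and in 1 of 5 sos2-2 libraries, and ARF10 changes its transcript between libraries of a group.

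The small RNA libraries gave the other side of each pair. Values were RPM, reads scaled to library size, and 1 RPM stood for 16.7 to 19.6 reads. The listed miRNAs summed to 83725 to 110760 RPM a library. For the median miRNA, the log2 change was 0.10 for salt in WT and −0.04 for salt in sos2-2. Between sos2-2 and WT it was 0.01 on MS and −0.14 in NaCl. Overlap of groups is given for RPM as deposited, and the share of all miRNAs without overlap was not counted. Of 293 miRNAs tested, 19 belonged to miR160, miR167, miR393 and miR390, the last of which starts the small RNAs against ARF2, ARF3 and ARF4. By limma 0 of the 19 were called in any comparison, where 13, 11, 13, 10 and 0 of all 293 miRNAs were called for salt in WT (4.44%), salt in sos2-2 (3.75%), sos2-2 against WT on MS (4.44%), the same in NaCl (3.41%) and the interaction (0%). At an unadjusted p under 0.05 there were 7, 1, 1, 3 and 1 of the 19. On whole reads, edgeR called 3, 4, 1, 0 and 0 of the 19, where 6.83, 16, 7.85, 4.44 and 0% of all miRNAs were called, and DESeq2 called 3, 4, 1, 1 and 0, where 7.85, 18.1, 8.19, 5.8 and 0.683% were.

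The guide strands differed widely in level. miR167a-5p stood at 982 to 1462 RPM, miR160a-5p at 50.6 to 68.3 RPM and miR393a-5p at only 1.92 to 3.8 RPM over the 12 libraries, the last from 36 to 65 reads. These are single entries, and each has others of the same sequence. Summed over the 5′ strands of a family, miR167 stood at 2312 to 3443 RPM, miR160 at 136 to 181 RPM and miR393 at 4.15 to 6.42 RPM. For miR393 the opposite strand was far more abundant, with miR393b-3p at 344 to 506 RPM. Which strand is loaded was not measured.

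miR160a-5p had 53.4, 60.6 and 53.8 RPM in sos2-2 in NaCl, 68.3, 54.8 and 62.5 RPM in WT in NaCl, 62.9, 61.1 and 55.9 RPM for sos2-2 on MS and 50.6, 65.9 and 66.7 RPM in WT on MS. The sos2-2 libraries in NaCl held no value above 60.6 RPM, but all groups overlapped. Between sos2-2 and WT in NaCl, where ARF10 rose, the change of miR160a-5p was −0.00 relative to the median miRNA (limma adjusted p = 0.562).

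miR167a-5p averaged 1247 ± 65.9 RPM in sos2-2 in NaCl, 1339 ± 107 RPM in WT in NaCl, 1245 ± 104 RPM for sos2-2 on MS and 1153 ± 153 RPM in WT on MS (SD, n = 3 each), within 0.12 of the median miRNA in every comparison of 2 groups. miR167d had 463, 441 and 418 RPM in sos2-2 on MS, against 266, 410 and 357 RPM in WT on MS, so every mutant library lay above every WT one. The change was 0.36 (SE 0.14, limma adjusted p = 0.151). With edgeR on the whole reads it rose (adjusted p = 0.0178).

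miR393a-5p had 2.55, 2.6 and 1.92 RPM in sos2-2 in NaCl, against 3.8, 3.19 and 2.9 RPM in WT in NaCl. These values did not overlap as deposited, where the median miRNA was itself lower in sos2-2 (−0.14). The change was −0.22 relative to the median miRNA (SE 0.16, limma adjusted p = 0.183). miR393b-5p, which has the same sequence, had a change of −0.19 (limma adjusted p = 0.183). Summed, the guide strand of miR393 averaged 4.29 ± 0.194 RPM in sos2-2 in NaCl and 5.97 ± 0.493 RPM in WT in NaCl (SD, n = 3 each), a change of −0.26 (95% interval −0.52 to 0.00, limma adjusted p = 0.0993). This is the comparison in which TIR1 and AFB3 rose, while AFB1 and AFB2 were not called. A link between this miRNA and its targets was not tested. miR393a-3p ran the other way, with 37.9, 28.4 and 35.3 RPM in sos2-2 in NaCl, against 32.5, 21.7 and 23.5 RPM in WT in NaCl, which overlapped (0.52, SE 0.16, limma adjusted p = 0.182).

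The star strand miR390a-3p came closest to a call with limma. It had 85.6, 70.8 and 81.0 RPM in WT in NaCl, against 48.8, 62.4 and 60.0 RPM in WT on MS, without overlap (0.37, SE 0.14, limma adjusted p = 0.0542). In sos2-2 the change was 0.35 (limma adjusted p = 0.2), and the interaction was −0.01, with a 95% interval that spans 0. With edgeR on the whole reads, miR390a-3p (adjusted p = 0.0253), miR390b-5p and miR167a-3p (0.035 each) rose with salt in WT. The same 3 with miR390a-5p rose in sos2-2 (edgeR adjusted p = 0.0141 to 0.0372). miR390a-5p has the same sequence as miR390b-5p, yet was not called in WT (edgeR adjusted p = 0.193). Summed, that strand had a limma adjusted p of 0.138 for salt in WT and 0.394 for salt in sos2-2. Neither the limma nor the edgeR fit paired libraries by replicate number.

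**Figure D4:**
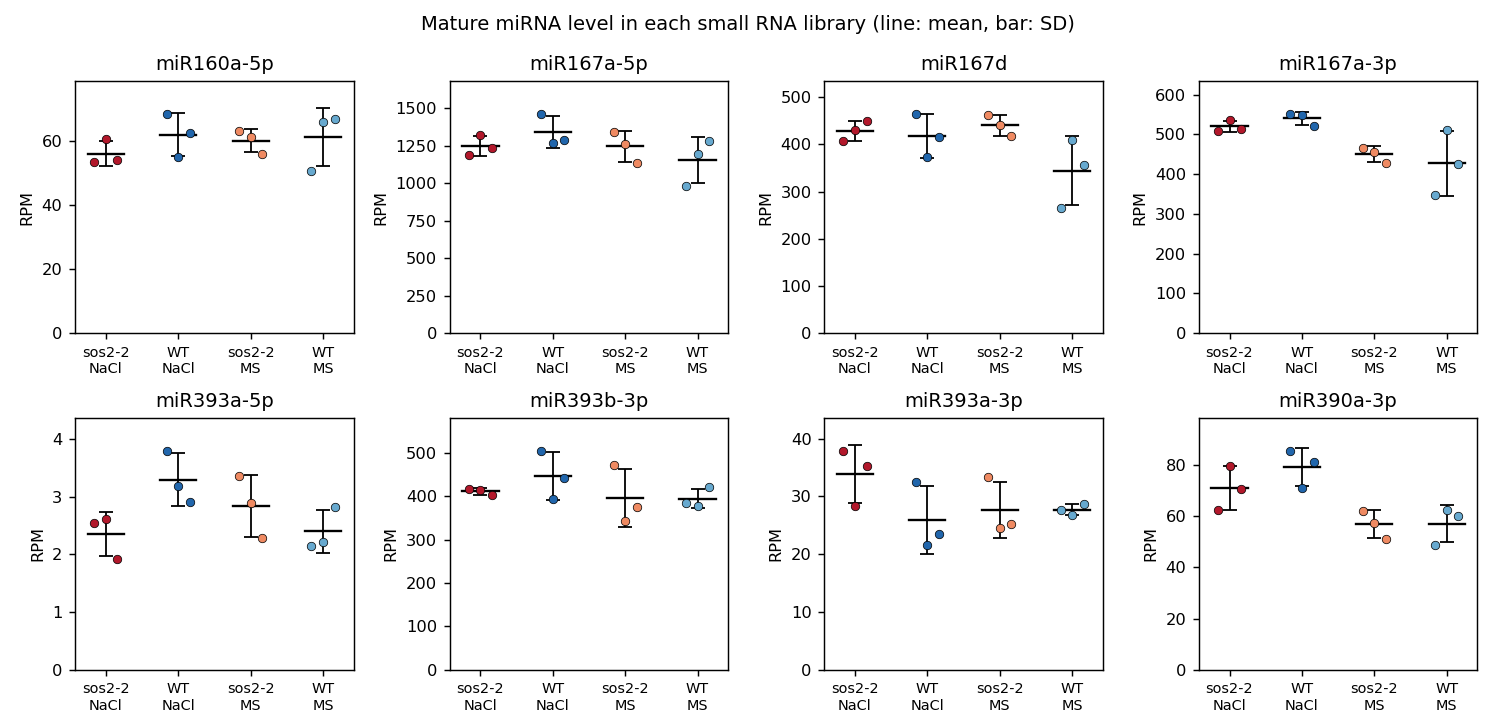
RPM (vertical axis, from 0) of 8 mature miRNAs in each small RNA library; points are libraries, lines group means and bars the SD (n = 3 each). miR393a-5p reaches at most 3.8 RPM while miR393b-3p is at least 344 RPM, and miR167d is higher in all 3 sos2-2 MS libraries than in all 3 WT MS libraries.

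The rest of the auxin pathway was described from lists of 80 genes, of which 57 were tested. These lists were also chosen with earlier results of these data known. Between sos2-2 and WT in NaCl, 17 of 57 rose and 0 fell, where 19.3% of all genes tested were called, and the median was 0.12 relative to the median gene. By list, 5 of 6 tested GH3 and other early response genes rose, 8 of 18 Aux/IAA repressors, 3 of 11 transport genes, 1 of 9 other receptor, SCF and NEDD8 genes, 0 of 10 other response factors and 0 of 3 synthesis genes. Of the 17, 7 were also called higher after median centring, and 3 other genes were then called lower.

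GH3.2, an enzyme that joins auxin to amino acids and is itself induced by auxin, had 13.3, 9.21 and 14.2 TPM in sos2-2 in NaCl, against 2.41, 2.07 and 1.29 TPM in WT in NaCl. On MS it had 1.58 and 1.97 TPM in sos2-2, against 2.38, 2.8 and 2.82 TPM in WT. Only sos2-2 in NaCl stood apart from every other group. On MS the sos2-2 values lay below those of WT without overlap, as did those of 22.7% of all genes tested. The difference in NaCl was 1.86 relative to the median gene (SE 0.20, limma adjusted p = 1.18e-06), and the salt response differed between the genotypes by 2.19 (SE 0.29, limma adjusted p = 0.000118). It was called in all 19 alternatives in NaCl and in all 18 for the interaction.

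GH3.3 and GH3.5, enzymes of the same family, rose in sos2-2 in NaCl as well. GH3.3 averaged 5.37 ± 2.18 TPM in sos2-2 in NaCl and 1.13 ± 0.166 TPM in WT in NaCl (SD, n = 3 each), a difference of 1.20 (limma adjusted p = 0.00046). In WT it fell with salt (−0.70, limma adjusted p = 0.0268), as did GH3.6 (−0.50, 0.0247), SAUR15, an early auxin gene (−0.62, 0.0158), and PIN4, an auxin efflux carrier (−0.41, 0.0446). These were the 4 of 57 pathway genes called in WT, where 7.71% of all genes fell. Over 19 alternatives SAUR15 was called in 13, GH3.3 and GH3.6 in 12 each and PIN4 in 5, and none of the 4 was called without WT in NaCl replicate 3. After median centring GH3.6 and PIN4 were still called, and with nuclear genes rescaled GH3.3 was. GH3.5 averaged 13.5 ± 0.962 TPM in sos2-2 in NaCl and 7.39 ± 0.844 TPM in WT in NaCl (SD, n = 3 each), a difference of 0.48 (limma adjusted p = 0.00491).

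Among the Aux/IAA repressors, which are at once the receptors' substrates and auxin-induced genes, IAA4 had the smallest adjusted p in NaCl. It averaged 10.3 ± 1.4 TPM in sos2-2 in NaCl and 4.24 ± 1.29 TPM in WT in NaCl (SD, n = 3 each; 0.81, limma adjusted p = 0.0011). IAA2 (0.75, limma adjusted p = 0.0028) and IAA14, a repressor known for blocking lateral roots (0.73, limma adjusted p = 0.00378), rose too. RCE1, which conjugates NEDD8 to the cullin of the receptor complex, rose by 0.36 (limma adjusted p = 0.0177), and of the transporters ABCB19 (0.46, 0.00464), PIN2 (0.36, 0.0107) and LAX3 (0.29, 0.0216) did. IAA4, IAA2, IAA14 and ABCB19 were called in all 19 alternatives, PIN2 in 17, LAX3 in 14 and RCE1 in 13. After median centring RCE1, PIN2 and LAX3 were not called, and with nuclear genes rescaled RCE1 and LAX3 were not. PIN2 also stands among the root markers.

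IAA26 behaved differently. It averaged 7.11 ± 1.21 TPM in sos2-2 on MS and 2.96 ± 0.267 TPM in WT on MS (SD, n = 2 and 3), and was the 1 of 57 pathway genes called there (1.08, limma adjusted p = 0.0445), where 1.56% of all genes rose. With salt it fell in sos2-2 (−1.20, limma adjusted p = 0.02), where IAA11 (0.56, 0.0318), GH3.2 (2.08, 3.64e-06) and GH3.5 (0.93, 0.00109) rose. These were the 4 of 57 called for salt in sos2-2, where 5.66% of all genes rose and 0.936% fell. The call of IAA26 on MS held in 7 of 19 alternatives (highest limma adjusted p = 0.307, without sos2-2 on MS replicate 2). It was lost after median centring, with nuclear genes rescaled and with the replicate number as a block, when 0 of 57 were called. For salt in sos2-2, GH3.2 and GH3.5 were called in all 19 alternatives, IAA26 in 13 and IAA11 in 12.

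**Figure D5:**
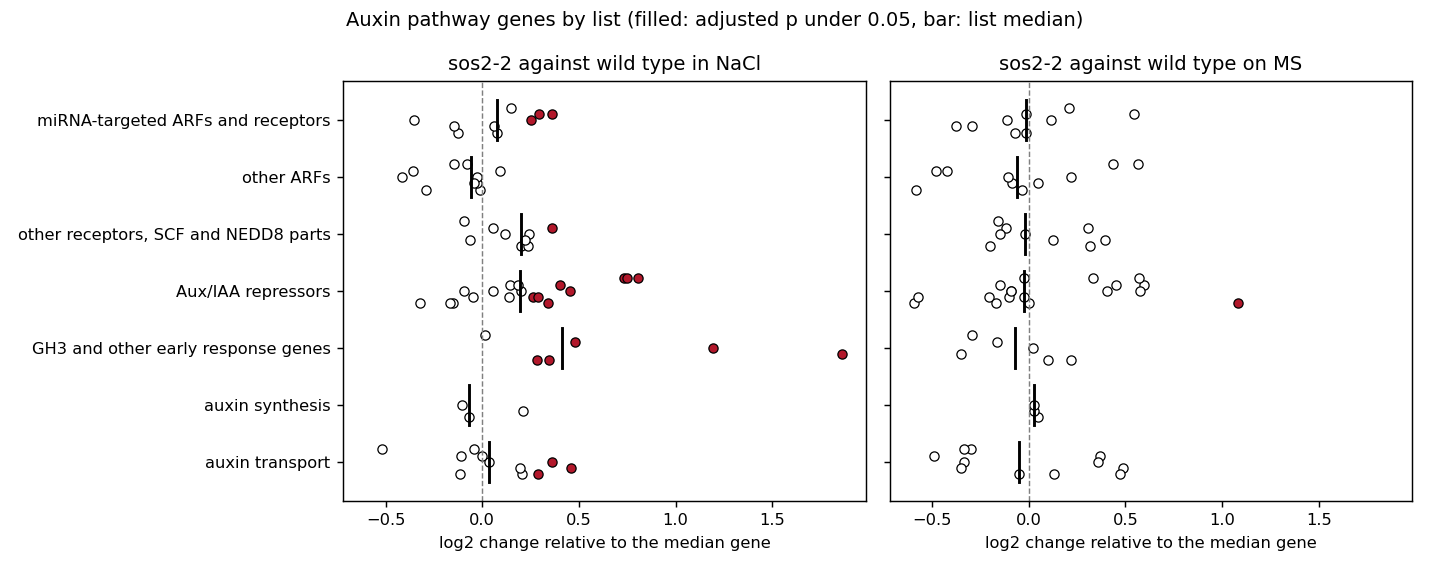
log2 change relative to the median gene (horizontal axis) of each tested gene by list, for sos2-2 against WT in NaCl (left) and on MS (right); filled points had a limma adjusted p under 0.05, and short bars are list medians. GH3.2 at 1.86 and GH3.3 at 1.20 lie farthest to the right in NaCl, where the miRNA-targeted genes stay between −0.35 and 0.36.

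For each of the 9 genes, the tested gene most like it over the 11 mRNA libraries was named by Pearson's r on median-centred log2 values. These were AT3G03070 for ARF6 (r = 0.973), DFC for ARF8 (0.95), AT5G09380 for ARF10 (0.898), AT4G13110 for ARF16 (0.957), AT3G27325 for ARF17 (0.918), AT5G52750 for TIR1 (0.927), AT2G47090 for AFB1 (0.91), HAG1 for AFB2 (0.933) and AT2G27770 for AFB3 (0.913). Each is the highest of 16555 values over libraries that share group differences and composition, and is a description only. None of the 9 nearest genes is on the auxin lists.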

How the data were processed

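The 9 genes and the gene lists were chosen with earlier results of these data known. The deposited mRNA table holds TPM for each transcript, which were summed to genes. The submitters' processing notes list kallisto 0.46.2, sleuth 0.30.0, cutadapt, featureCounts 1.6.4 and build TAIR10, without their roles. The deposited small RNA table holds RPM for each mature miRNA. All 2737 values of 1 to 200 reads were within 0.1 of a whole read, and 1 RPM stood for 16.7 to 19.6 reads. Small RNA columns carry the names of the mRNA samples, so they were matched to groups, and their replicate numbers are those in the column names.

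Features with a mean of at least 1 were tested on log2(value + 1), which understates the change of low genes, with limma 3.58.1, an intensity trend and all groups in 1 fit. Calls had a Benjamini-Hochberg adjusted p under 0.05 over all features, and "rose" and "fell" are kept for called features. edgeR 4.0.16 and DESeq2 1.42.0 were run on the recovered reads. The fit was tested on simulated data with equal, independent noise for every gene and no library-wide shift. That test therefore does not cover the differences in library makeup. Sites were scored on TAIR10.1 RefSeq transcripts. Named pathway genes were, per list and comparison, at most the 3 called genes with the smallest adjusted p, and AT3G23690 was named after the site search. Among comparisons with 3 pairs of same-numbered libraries, deviations correlated above 0.1 in all 3 only for small RNA of WT in NaCl and on MS. The values of r were 0.271, 0.215 and 0.172. The p-values printed for that comparison leave this pairing out, and only its count with the replicate block is given, with the alternatives. For mRNA of sos2-2 against WT on MS, the existing pairs had r = 0.161 and 0.169. For mRNA of sos2-2 against WT in NaCl, r was −0.526, −0.231 and −0.236. Their printed p-values leave the replicate number out as well. Whether counting used strand is not stated.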

Additional observations from a re-analysis of the deposited data

Results flagged for a closer look

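The salt response of 3 auxin-conjugating enzymes differed between the genotypes by limma's interaction test. GH3.2 differed by 2.19 on the log2 scale relative to the median gene (adjusted p = 0.000118), with 9.21 to 14.2 TPM in sos2-2 in NaCl, 1.29 to 2.41 TPM in WT in NaCl, 1.58 to 1.97 TPM in sos2-2 on MS and 2.38 to 2.82 TPM in WT on MS. GH3.3 differed by 1.16 (adjusted p = 0.0305) and was called in 9 of 18 alternatives. GH3.5 differed by 0.62 (adjusted p = 0.0468) and was called in 3 of 18 alternatives. None of the 9 miRNA-targeted genes and none of the 19 miRNAs had such a call.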

How the results depend on the processing

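For sos2-2 against WT in NaCl, the count of members called went from 3 to 1 with no filter or with only the 2 groups compared. The most abundant transcript alone also gave 1. After median centring the 1 call was ARF8, which fell, and none of the 3 was kept. The count was 0 with nuclear genes rescaled or, added after seeing the data, with transcripts fitted one by one. Leaving out 1 library gave 0 to 4 there (4 without WT in NaCl replicate 1), 0 to 2 for salt in WT and for the interaction, and 0 for the other 2 comparisons. The 4 pathway genes called for salt in WT became 0 with no filter and 2 with nuclear genes rescaled (GH3.3, and ABCB1 called higher) or the most abundant transcript alone (0 to 18 without 1 library, 18 without WT in NaCl replicate 1). The 4 for salt in sos2-2 ranged from 2 to 5 without 1 library. The 1 on MS became 0 with pseudocount 0.1, no filter or the replicate block, 4 after centring or with the 2 groups alone and 3 with nuclear genes rescaled, IAA26 not among them after centring or rescaling (0 to 3 without 1 library). The 17 in NaCl became 10 after centring and with nuclear genes rescaled (9 to 26 without 1 library), and the 3 for the interaction became 1 under both (1 to 18 without 1 library). Of the 19 miRNAs, limma called 0, whereas edgeR and DESeq2 called 3 each for salt in WT, 4 each for salt in sos2-2 and 1 each on MS, and DESeq2 called 1 in NaCl. Centring called 2 for salt in sos2-2 and 1 on MS, and leaving out 1 library gave 0 to 3 for salt in WT, 0 to 1 on MS and 0 elsewhere. The cause of these changes was not tested. With the replicate block, 3 members were called in NaCl and 0 elsewhere. The block also gave 2 pathway genes for the interaction and 0 of the 19 miRNAs, salt in WT included. Of 3142 values compared, 130 changed sign, none of them called in either fit. TPM keeps no depth, and miR393 guide strands rest on 30 to 65 reads a library.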

Other observations

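AT3G23690 was the one gene outside the 9 with a site for miR393a-5p scoring 4 or less. It was named for its site after the search and carries no symbol in the RefSeq annotation.

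AT3G23690, for miR393: GGgUCAgaGCGAUCCCUUUGGc

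Capitals mark Watson-Crick pairs with the miRNA. The site, in coding sequence at chr3:8530587-8530608 on the minus strand, had A1C, U15A, A16G and A20G and a score of 3. AT3G23690 had 9.97 to 11.9 TPM in sos2-2 in NaCl, against 5.53 to 7.92 TPM in WT in NaCl. The groups did not overlap, and 36.0% of all genes tested were likewise higher without overlap. It rose as deposited (limma adjusted p = 0.0236), as did 18.9% of all genes tested. Relative to the median gene the change was 0.31 (SE 0.18, 95% interval −0.04 to 0.67), and no alternative fit is given for it. On MS it had 7.89 and 8.69 TPM in sos2-2, against 9.26, 7.84 and 9.17 TPM in WT, and was not called (limma adjusted p = 0.891).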
